A study of Homo sapiens with 6 samples.

Results

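The genes described here are the integrin subunits, the laminin chains and CD44, in arrays of UMUC-14 cells, an established human carcinoma line. The list was written by gene name and held 32 genes, of which 30 had a row among the 19361 rows of the deposited table. ITGA1 and ITGB1 were not analysed here. After the dimmest 30% of rows were left out, 21 of the 30 were tested and 9 were not. The study holds 6 arrays (Affymetrix U133 Plus 2.0), all from UMUC-14 grown in DMEM with fetal bovine serum. In 3 of them the cells received LipofectaminRNAimax, a transfection reagent, without an siRNA, and in the other 3 the same reverse transfection delivered an siRNA against the receptor tyrosine kinase FGFR3. Each siFGFR3 array used its own siRNA, named siFGFR3#35, siFGFR3#36 and siFGFR3#3, and RNA was taken after 40 h. No control with a non-targeting siRNA is named in the labels, and effects of carrying any siRNA and of losing FGFR3 therefore cannot be told apart. The labels also name no separate cultures for the control arrays, so the spread between these arrays may be technical. In the group comparison, p-values rest on the spread within both groups, and between siFGFR3 arrays it holds the differences between siRNAs. The median SD of the 21 tested genes was 0.06 in controls and 0.14 in siFGFR3 arrays. Where single siRNAs are compared, p-values rest on the spread of the controls alone.

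Integrins are receptors made of an alpha and a beta subunit that link the matrix outside the cell to the actin or keratin skeleton inside it. Laminins are heterotrimers of an alpha, a beta and a gamma chain and form the sheet of the basement membrane on which an epithelium such as the urothelium rests. CD44 is a transmembrane receptor for the matrix polysaccharide hyaluronan and is carried mainly by basal urothelial cells. The subunits pair in fixed combinations, so a change in the RNA of 1 subunit is not a measure of the receptor on the surface.

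Levels are the authors' log2 RMA values, and differences are siFGFR3 minus lipofectamine on that scale with the SE from limma. The threshold for passing was an adjusted p below 0.05 (Benjamini-Hochberg over 13552 rows tested). FGFR3 lay at 8.70, 8.75 and 8.74 in the lipofectamine arrays. It was at 7.47 with siFGFR3#35, 7.14 with siFGFR3#36 and 8.45 with siFGFR3#3, or 41.7%, 33.3% and 82.2% of the control signal. The siFGFR3#3 array thus kept the most FGFR3 signal, by 0.98 and 1.30 over siFGFR3#35 and siFGFR3#36 (adjusted p = 1.18e-05 and 8.15e-07, pair contrasts of a limma model with 1 level per siRNA). FGFR3 as a group difference (−1.04, SE 0.30, adjusted p = 0.0271) missed the threshold when any 1 control or siFGFR3#35 was left out (adjusted p = 0.0705 to 0.0814). Array medians were 5.43, 5.42 and 5.41 in the lipofectamine arrays. They were 5.52, 5.45 and 5.50 with siFGFR3#35, siFGFR3#36 and siFGFR3#3, all above the controls. The number of arrays limits the precision. In bulk RNA, fewer cells of a kind and less RNA per cell cannot be told apart.

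Of the 21 tested genes, 6 fell, 4 rose and 11 did not pass. The genes that fell were CD44, ITGA2, ITGB5, LAMC3, LAMA3 and ITGAE, and those that rose were LAMB2, LAMA5, ITGAV and ITGB4. Among all rows tested, 24.6% fell, 20.6% rose and 45.1% passed in either direction, against 47.6% of these 21, so the count of changed genes was near the background. The median change was −0.08 for the 21 genes and −0.04 for all rows, and the median size of change without its sign was 0.35 against 0.24. Changes of at least 0.5 that passed were found for 4 of the 21 (19.0%) and for 17.6% of all rows. Control and siFGFR3 arrays were fully separate for 13 of the 21 (61.9%), against 60.8% of all rows, with 5 higher and 8 lower, where the shares of all rows were 26.9% and 33.9%. The rises numbered 2 without lipofectamine replicate 1 or 3 and 3 without lipofectamine replicate 2. Over all rows, the rises without replicates 1, 2 and 3 numbered 1713, 1769 and 1672, in place of 2789. With each array centred on its median, 3 rose and 7 fell, and among all rows 2312 rose and 4285 fell in place of 2789 and 3329.

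**Figure D1:**
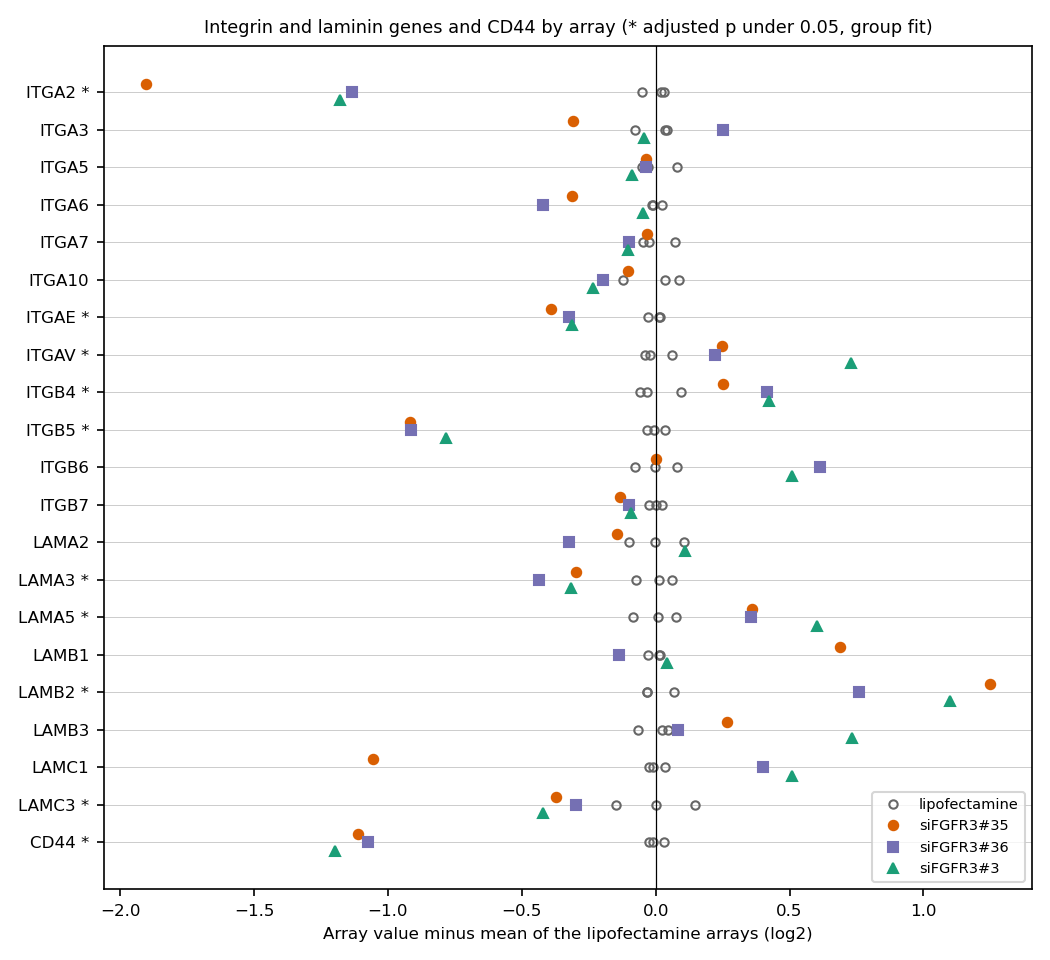
Each point is 1 array of a tested gene, as its log2 value minus the mean of the 3 lipofectamine arrays (horizontal axis); siRNA symbols are shifted vertically for legibility, and an asterisk marks an adjusted p under 0.05 in the group comparison. CD44 and ITGB5 have all siFGFR3 arrays close together below the controls, ITGA2 has siFGFR3#35 lowest at −1.90, and LAMC1 has siFGFR3#35 on the other side of the controls from the other siRNAs.

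CD44 was at 8.49, 8.53 and 8.48 in the lipofectamine arrays and at 7.39, 7.43 and 7.30 with siFGFR3#35, siFGFR3#36 and siFGFR3#3. The siFGFR3 arrays were low together, with an SD of 0.06 (n = 3) against 0.03 in the controls (n = 3), and the groups did not overlap. CD44 fell by 1.13 (SE 0.06, adjusted p = 0.000196), or 2.18-fold, the 72nd largest of 3329 falls. The level with each siRNA was 46.2%, 47.5% and 43.6% of the control, and the pairs of siRNAs differed by 0.04 to 0.12 (SE 0.06, adjusted p = 0.189 to 0.696). The siRNA that left the most FGFR3 signal, siFGFR3#3, thus had the lowest CD44 array by a margin that did not pass. A single row stands for the gene, so the splice forms for which CD44 is known cannot be separated. The fall kept its direction and passed under all 12 alternatives (adjusted p from 6.44e-09 to 0.00435).

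The promoter window of CD44 is shown because its transcript had the smallest adjusted p of the 21 tested genes. It is RefSeq's 300 bases from 250 before to 50 after the annotated start (GRCh38.p14, chr11:35138921-35139220, plus strand). The capitals mark the only match to the ETS core GGAAGT, read on the other strand and beginning 14 bases before the start, and no match to the AP-1 motif TGANTCA was found on either strand.
CD44: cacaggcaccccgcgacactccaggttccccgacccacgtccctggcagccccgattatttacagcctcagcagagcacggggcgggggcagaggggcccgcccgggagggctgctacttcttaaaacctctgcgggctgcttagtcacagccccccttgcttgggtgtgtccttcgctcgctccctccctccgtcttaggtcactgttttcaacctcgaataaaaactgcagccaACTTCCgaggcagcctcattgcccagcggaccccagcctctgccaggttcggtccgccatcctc
Across all 35116 windows of this length, 22.8% hold GGAAGT and 7.71% hold TGANTCA on either strand. Among the genes of the list, 24 had 31 windows, of which 10 hold the first motif and 3 the second. A match describes the letters and does not show binding.

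Hyaluronan is made at the cell membrane by the synthases HAS1, HAS2 and HAS3 from a sugar that UGDH supplies. Of 22 tested genes of the hyaluronan and CD44 list, which leaves out CD44 itself, 9 fell, 5 rose and 8 did not pass, with a median of −0.17. Of all rows tested, 24.6% fell and 20.6% rose. HAS2 was at 5.30, 5.44 and 5.42 in controls and at 3.92, 3.68 and 4.04 with siFGFR3#35, siFGFR3#36 and siFGFR3#3. It fell by 1.51 (SE 0.11, adjusted p = 0.000337) to a mean of 3.88, just under the 3.89 at which dim rows were left out, so the size of the fall is uncertain. HAS3 was at 8.20, 8.14 and 8.10 in controls and at 5.80, 6.65 and 7.22 with the siRNAs in the same order. It fell by 1.59 (SE 0.31, adjusted p = 0.0073), and every siFGFR3 array of both synthases lay below the controls. HAS1 and UGDH also fell, by 0.24 and 0.57 (adjusted p = 0.0266 and 0.00154 in limma), and were named after their values were seen. HAS1 had means of 4.27 in controls and 4.03 in siFGFR3 arrays, not far above the same limit of 3.89. UGDH had means of 10.62 and 10.05. The largest rises were in RDX (1.06, SE 0.17), a linker of CD44 to actin, and in CEMIP2 (0.74, SE 0.13), a cell surface protein involved in hyaluronan breakdown. The splicing factor ESRP2, which acts on CD44 exons, rose by 0.67 while its relative ESRP1 was at −0.03 (not passing), both chosen after their values were seen. Without any 1 of the controls, 3 or 4 of the 22 genes fell in place of 9. Over all rows, 1985 to 1990 fell in that setting in place of 3329.

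**Figure D2:**
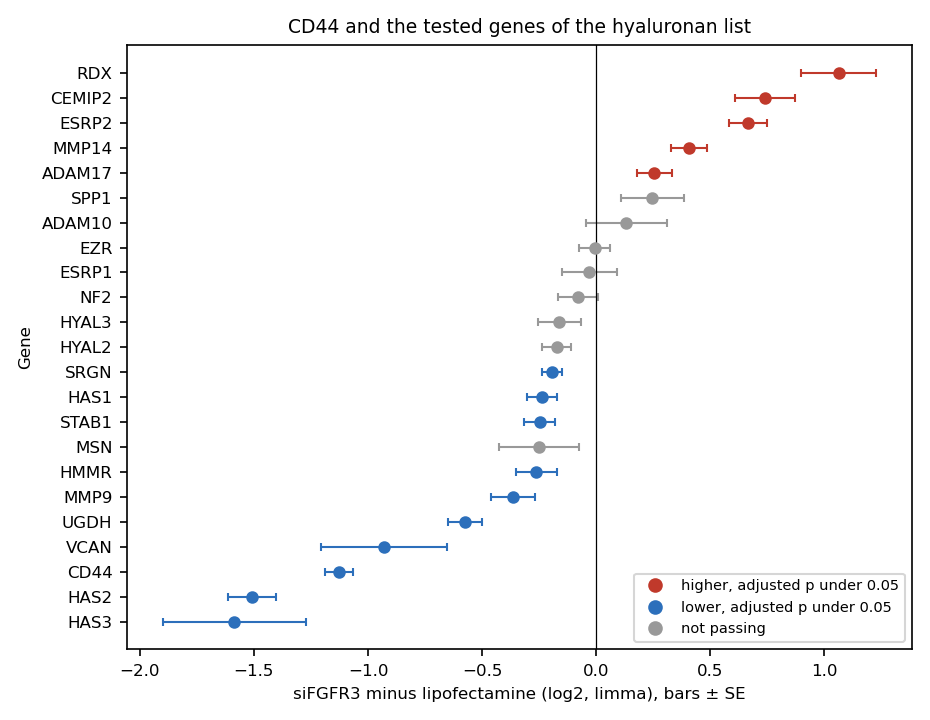
Points are the difference siFGFR3 minus lipofectamine on the log2 scale with its SE (horizontal axis) for CD44 and the 22 tested genes of the hyaluronan list (vertical axis), coloured by whether they passed. HAS3, HAS2 and CD44 lie at the left end at −1.59, −1.51 and −1.13, and RDX at the right end at 1.06.

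Among the collagen-binding alpha subunits ITGA2 fell, ITGA10 did not pass and ITGA11 was too dim to be tested. ITGA2 pairs with ITGB1 to form a receptor for fibrillar collagen on epithelial cells and platelets. It was at 8.87, 8.94 and 8.96 in the lipofectamine arrays, and at 7.02 with siFGFR3#35, 7.79 with siFGFR3#36 and 7.75 with siFGFR3#3. The siFGFR3 arrays were all lower, and siFGFR3#35 was lowest. ITGA2 fell by 1.41 (SE 0.19, adjusted p = 0.00208), or 2.65-fold, the 34th largest of all falls, to 26.7%, 45.5% and 44.2% of the control by siRNA. The siFGFR3#35 array lay 0.77 below siFGFR3#36 and 0.72 below siFGFR3#3 (adjusted p = 3.05e-05 and 7.74e-05), while the latter pair differed by 0.04 (adjusted p = 0.685). ITGA10, a collagen receptor of cartilage, lay between 4.09 and 4.41 over the 6 arrays and differed by −0.18 (adjusted p = 0.126).

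The ITGA2 window (GRCh38.p14, chr5:52989102-52989401, plus strand) is given for comparison with that of CD44, since this gene had the largest fall of the list. It holds neither motif, so no letters are capitalised.
ITGA2: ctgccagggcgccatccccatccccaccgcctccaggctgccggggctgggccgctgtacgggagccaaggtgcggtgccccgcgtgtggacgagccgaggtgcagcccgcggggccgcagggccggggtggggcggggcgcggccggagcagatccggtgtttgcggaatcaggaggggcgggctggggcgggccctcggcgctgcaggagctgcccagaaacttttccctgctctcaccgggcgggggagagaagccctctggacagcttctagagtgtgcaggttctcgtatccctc
Its share of G and C is 72.7%, against 63.3% in the CD44 window.

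The integrins that bind the tripeptide Arg-Gly-Asp in fibronectin, vitronectin and the latent form of TGF-beta gave changes in both directions. ITGB5, the beta partner of ITGAV in a vitronectin receptor, was at 7.63, 7.56 and 7.59 in controls and at 6.67, 6.68 and 6.81 with siFGFR3#35, siFGFR3#36 and siFGFR3#3. The groups did not overlap and the siRNAs lay close together, with pair differences of 0.01 to 0.14 (adjusted p = 0.231 to 0.962). ITGB5 fell by 0.87 (SE 0.07, adjusted p = 0.000446), or 1.83-fold. RefSeq lists 3 starts for ITGB5 and the row does not say which was used, so no window is printed; 2 of the 3 windows hold GGAAGT and 0 hold TGANTCA.

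ITGAV, the alpha subunit that serves several beta partners, was at 10.46, 10.47 and 10.56 in controls and at 10.74, 10.72 and 11.23 with the siRNAs in the same order. It rose by 0.40 (SE 0.13, adjusted p = 0.0443), and the siFGFR3#3 array lay 0.48 and 0.51 above the others (adjusted p = 0.000489 and 0.000282). Leaving out any 1 control ended the group call (adjusted p = 0.0938 to 0.122), as did centring arrays on their median (0.0675) and dropping the variance trend (0.0519). ITGB6, the epithelial partner of ITGAV that activates latent TGF-beta, was at 7.44, 7.52 and 7.36 in controls and at 7.44, 8.05 and 7.95 with the siRNAs. It differed by 0.37 (SE 0.16, adjusted p = 0.0859) with overlapping groups, because siFGFR3#35 stood within the controls and the others stood above them. Without siFGFR3#35 the difference was 0.56 (adjusted p = 0.00307). The fibronectin receptor subunit ITGA5 did not pass (−0.05, adjusted p = 0.527), with all arrays between 6.63 and 6.80. The dim rows of this class were ITGA8, ITGB3 and ITGB8.

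ITGA3, ITGA6, ITGA7 and ITGB4 are subunits of laminin receptors, and ITGB4, with ITGA6, anchors keratin filaments at hemidesmosomes. The shared beta subunit ITGB1 was not analysed here. ITGB4 was at 5.68, 5.83 and 5.70 in controls and at 5.99, 6.15 and 6.16 with siFGFR3#35, siFGFR3#36 and siFGFR3#3, so that the groups did not overlap. It rose by 0.36 (SE 0.08, adjusted p = 0.0113), a call lost without lipofectamine replicate 1 or 3 (adjusted p = 0.0532 and 0.0506). ITGA6, its partner, was at 10.43, 10.46 and 10.42 in controls and at 10.12, 10.02 and 10.39 with the siRNAs, and the array of siFGFR3#3 lay just below the controls. It differed by −0.26 (SE 0.09, adjusted p = 0.0573), by −0.33 with arrays centred on their median (adjusted p = 0.021) and by −0.37 without siFGFR3#3 (adjusted p = 0.00608). The siFGFR3#35 and siFGFR3#36 arrays of ITGA6 lay 0.26 and 0.37 below siFGFR3#3 (adjusted p = 0.00524 and 0.000607). ITGA3 ran from 7.30 to 7.41 in controls and did not pass (−0.03, adjusted p = 0.845). ITGA7, a subunit best known from muscle, reached at most 4.18 in any array and did not pass (−0.08, adjusted p = 0.403).

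The remaining subunits are known mainly from leukocytes or bind VCAM1 and other ligands. ITGAE, which pairs with ITGB7 to bind E-cadherin, was at 9.71, 9.66 and 9.71 in controls and at 9.30, 9.37 and 9.38 with siFGFR3#35, siFGFR3#36 and siFGFR3#3. It fell by 0.34 (SE 0.05, adjusted p = 0.00272), with no overlap of the groups and with siRNA pairs that differed by 0.01 to 0.08 (adjusted p = 0.373 to 0.93). ITGB7 did not pass (−0.11, adjusted p = 0.199), and ITGB2, ITGA4 and ITGA9 were too dim to be tested. Of 7 tested leukocyte markers 0 rose and 1 fell at an adjusted p under 0.05 in limma (CD3D, −0.47). CD3D had means of 4.86 in controls and 4.39 in siFGFR3 arrays, not far above the limit of 3.89 for dim rows. PTPRC was among the dim rows. The summed linear signal of the 11 markers was 724 to 815 in controls and 572 to 707 in siFGFR3 arrays. Most of this sum came from LCP1, with means of 9.15 and 8.85, which did not pass (−0.30, adjusted p = 0.0581 in limma). The next brightest marker was CD68, with means of 5.39 and 5.19. The labels name no cells other than UMUC-14, and a part of leukocytes in the fall of ITGAE was not tested.

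Of the 9 dim genes, ITGA4, ITGA8, ITGA9, ITGA11, ITGB2, ITGB3, ITGB8, LAMA1 and LAMA4, the mean levels ran from 2.15 to 3.76. Their raw group differences ran from −0.27 (LAMA4) to 0.29 (ITGB8). With no filter, ITGA8, ITGA11 and LAMA4 also fell (adjusted p = 0.0444, 0.025 and 0.0301), at levels where signal over background was not analysed here.

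Laminin chains went both ways. LAMB2, a beta chain of basement membranes in muscle, kidney and vessels, was at 5.70, 5.60 and 5.60 in controls and at 6.88, 6.39 and 6.73 with siFGFR3#35, siFGFR3#36 and siFGFR3#3. All siFGFR3 arrays were higher, and siFGFR3#36 was lowest among them, by 0.49 against siFGFR3#35 and 0.34 against siFGFR3#3 (adjusted p = 0.00366 and 0.0268). LAMB2 rose by 1.04 (SE 0.13, adjusted p = 0.00137), or 2.05-fold, the 303rd largest of 2789 rises. The window of LAMB2 (GRCh38.p14, chr3:49133001-49133300, minus strand, printed along the gene) is shown because this was the only chain or subunit to rise by at least 0.5. It holds neither motif.
LAMB2: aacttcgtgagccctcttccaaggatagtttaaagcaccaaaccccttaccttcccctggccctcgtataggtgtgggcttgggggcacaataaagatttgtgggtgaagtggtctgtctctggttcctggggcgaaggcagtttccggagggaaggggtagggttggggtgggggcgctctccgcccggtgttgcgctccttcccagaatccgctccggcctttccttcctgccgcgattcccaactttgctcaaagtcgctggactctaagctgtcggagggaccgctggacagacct

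LAMA5, the widespread alpha chain of adult epithelial basement membranes, was at 9.21, 9.31 and 9.37 in controls and at 9.66, 9.65 and 9.90 with the siRNAs in the same order. It rose by 0.44 (SE 0.08, adjusted p = 0.00644), and siFGFR3#3 lay 0.24 above each of the others (adjusted p = 0.0451 and 0.0341). LAMA3 and LAMB3 encode chains of the laminin that lies under hemidesmosomes. LAMA3 was at 4.56, 4.65 and 4.70 in controls and at 4.34, 4.20 and 4.32 with the siRNAs, and fell by 0.35 (SE 0.08, adjusted p = 0.0113) with no overlap. LAMB3 was at 9.65, 9.76 and 9.74 in controls and at 9.99, 9.80 and 10.45 with the siRNAs, so that siFGFR3#3 stood above all others. It differed by 0.36 (SE 0.15, adjusted p = 0.0931), and by 0.50 without siFGFR3#36 (adjusted p = 0.0182). LAMC3, a gamma chain of narrow distribution, was at 5.08, 4.93 and 5.23 in controls and at 4.71, 4.78 and 4.66 with the siRNAs. It fell by 0.36 (SE 0.09, adjusted p = 0.0183), a call lost without lipofectamine replicate 1 or 3 or siFGFR3#3 (adjusted p = 0.0526 to 0.0614). LAMA2, the alpha chain of muscle, did not pass (−0.12, adjusted p = 0.447).

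**Figure D3:**
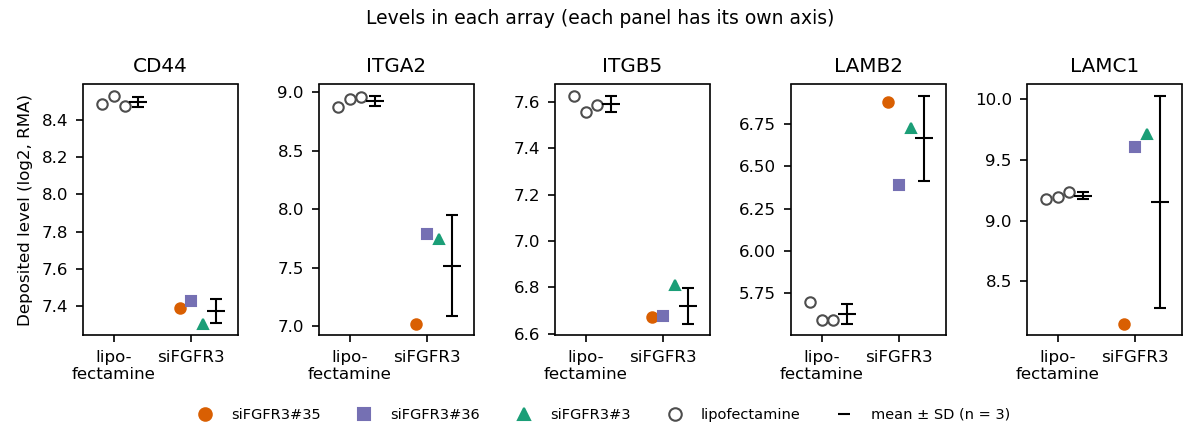
Deposited log2 levels of CD44, ITGA2, ITGB5, LAMB2 and LAMC1 in each array (vertical axis, a separate scale per panel) for lipofectamine and siFGFR3 arrays, with the mean ± SD of 3 arrays drawn beside the points. The groups are separate for the first 4 genes, and for LAMC1 siFGFR3#35 lies at 8.15, below controls at 9.18 to 9.24, with the other siRNAs above them.

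The common gamma chain LAMC1 and the beta chain LAMB1, which assemble together in many laminins, differed between the siRNA arrays. LAMC1 was at 9.18, 9.20 and 9.24 in controls, at 8.15 with siFGFR3#35, at 9.60 with siFGFR3#36 and at 9.71 with siFGFR3#3. Against the controls it fell by 1.06 with the first siRNA, to 48.1% of their signal, and rose by 0.40 and 0.51 with the others (adjusted p = 6.13e-08, 6.64e-05 and 7.78e-06 in the model with 1 level per siRNA). The siFGFR3#35 array differed from the others by −1.46 and −1.56 (SE 0.06, adjusted p = 2.01e-07 and 5.01e-07), while these differed from each other by −0.11 (adjusted p = 0.189). As a group, LAMC1 showed −0.05 (SE 0.38, adjusted p = 0.923), which became 0.45 without siFGFR3#35 (adjusted p = 0.00275). LAMC1 was the only tested gene of the list with a pair difference of at least 1, which 2.38% of all rows had. These comparisons set single arrays side by side, assume that each varies like the controls, and test arrays, not conditions. The titles also end in an unexplained number, 2 for siFGFR3#35 and 1 for the other siRNAs, so whatever it marks and the siRNA cannot be told apart.

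LAMB1 ran the other way. It was at 8.25, 8.26 and 8.21 in controls, at 8.93 with siFGFR3#35, at 8.10 with siFGFR3#36 and at 8.28 with siFGFR3#3. The siFGFR3#35 array stood above the others by 0.83 and 0.65 (adjusted p = 1.2e-05 and 9.08e-05). The group difference of 0.20 did not pass (adjusted p = 0.426). ITGA3, the alpha subunit of a laminin receptor of epithelia, was at 7.06 with siFGFR3#35, 7.62 with siFGFR3#36 and 7.33 with siFGFR3#3. Its first siRNA array lay 0.56 below the next (adjusted p = 0.000638). In these 3 genes a pair of siRNAs that differed had passed in opposite directions against the controls, which 3.05% of all rows did.

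Set against the controls, which all 3 comparisons share, siFGFR3#35 had 6 of the 21 genes higher and 8 lower, siFGFR3#36 7 higher and 7 lower, and siFGFR3#3 7 higher and 6 lower. Over all rows tested, siFGFR3#35 had 30.4% higher and 30.3% lower (60.7% in all). With siFGFR3#36 the shares were 22.7% and 26.8% (49.5%), and with siFGFR3#3 they were 29.9% and 30.3% (60.2%). Between siRNAs, 7 of the 21 differed for siFGFR3#35 and siFGFR3#36, 3 higher and 4 lower in siFGFR3#35, where 32.1% of all rows did (17.9% and 14.2%). For siFGFR3#35 and siFGFR3#3 the count was 9, with 8 lower and 1 higher in siFGFR3#35, where 18.3% of all rows differed (8.81% lower and 9.52% higher). For siFGFR3#36 and siFGFR3#3 it was 6, with 1 higher and 5 lower in siFGFR3#36, where 26.0% of all rows differed (11.6% and 14.3%). The 3 pair contrasts called 10 of the 21 genes at least once, where 43.6% of all rows were, and CD44, ITGB5, ITGB4, ITGAE, LAMA3 and LAMC3, which passed as a group, were in none of them.

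**Figure D4:**
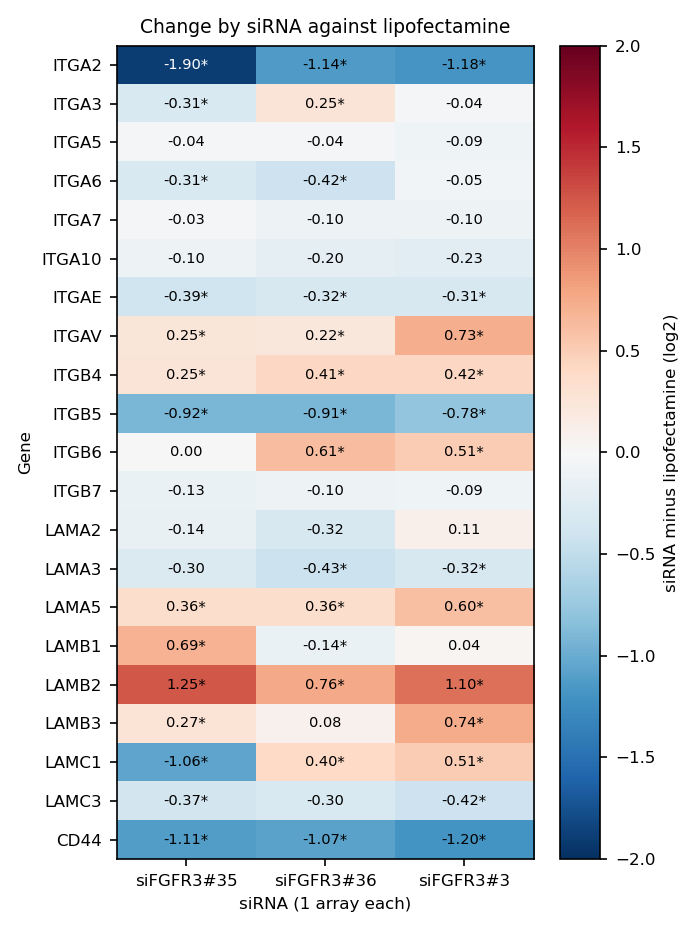
Cells give the log2 difference of each siRNA array from the lipofectamine arrays (columns) for the 21 tested genes (rows), with an asterisk at an adjusted p under 0.05. The rows of CD44 and ITGB5 have similar values in the 3 columns, and the rows of LAMC1, LAMB1 and ITGA3 change sign between columns.

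Genes that work with integrins and laminins were also counted. Of all rows tested, 20.6% rose and 24.6% fell, for comparison with each list from here on. When 1 control was left out, 27.0% to 27.7% of all rows passed in either direction, in place of 45.1%. Of 34 tested adaptors and activators that join integrins to actin, 9 rose, 2 fell and 23 did not pass (median 0.10). The largest rises were in the focal adhesion protein TNS3 (1.38, SE 0.09) and the docking protein NEDD9 (0.93, SE 0.06), and the falls were in ITGB1BP1 (−0.58), which binds the tail of ITGB1, and PARVB (−0.29). The remaining rises were in TGFB1I1 (0.61), KANK2 (0.54), PTK2B (0.28), the focal adhesion kinase PTK2 (0.34) and the integrin activator TLN1 (0.25). The actin crosslinkers FLNA (0.33) and ACTN4 (0.41) also rose. Their adjusted p in limma ran from 0.00197 (KANK2) to 0.0402 (TLN1). ILK, VCL, ZYX and PXN did not pass (−0.02 to 0.23). The genes of this list other than TNS3, NEDD9, ITGB1BP1 and PARVB were named after their values were seen. Without any 1 of the controls 4 or 5 of the 34 rose and 1 fell, and PARVB did not pass without any 1 control or siFGFR3#3 (adjusted p = 0.0503 to 0.0631).

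Of 14 tested tetraspanins and other membrane partners, 8 rose, 1 fell and 5 did not pass (median 0.31). TSPAN8 rose by 0.93 (SE 0.29) and CD82 by 0.56 (SE 0.09), and the urokinase receptor PLAUR fell by 0.55 (SE 0.11). CD151, the tetraspanin bound to laminin receptors, rose by 0.31 (adjusted p = 0.0347, named after its value was seen). With 1 control left out 3 or 4 rose, and TSPAN8 did not pass (adjusted p = 0.075 to 0.112). With arrays centred on their median 5 rose.

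Of 11 hemidesmosome genes, which include ITGA6, ITGB4, LAMA3, LAMB3 and CD151 from the counts above, 3 rose, 3 fell and 5 did not pass. Besides ITGB4 and LAMA3, the basal keratins KRT5 (−0.98, SE 0.10) and KRT14 (−0.50, SE 0.15) fell and the anchoring collagen COL7A1 rose (0.45, SE 0.15). PLEC, the linker to keratin, was at −0.01 and COL17A1 at 0.39, and neither passed. COL7A1 did not pass without any 1 control, siFGFR3#35 or siFGFR3#3 or with arrays centred (adjusted p = 0.0566 to 0.134), and KRT14, whose mean in siFGFR3 arrays lay below the limit for dim rows, did not pass without lipofectamine replicate 1 or 3 or siFGFR3#35 (0.0789 to 0.101). Without lipofectamine replicate 1, 2 or 3, the rises in this list numbered 0, 1 and 0.

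Of 19 tested basement membrane partners, 8 rose, 3 fell and 8 did not pass (median 0.26). The collagen chain COL4A5 rose by 0.89 (SE 0.12) and the laminin-related NTN4 by 0.79 (SE 0.07). The paired chains COL4A1 and COL4A2 fell by 0.49 and 0.50 (SE 0.15 and 0.16), calls lost without any 1 control (adjusted p = 0.0879 to 0.114). Without any 1 control, 5 of the list rose and 0 fell. Of 20 tested integrin ligands other than laminins, 5 rose, 4 fell and 11 did not pass (median 0.04). Fibronectin (FN1) rose by 0.71 (SE 0.16) and TGFBI by 0.53 (SE 0.11), while the leukocyte integrin ligands ICAM3 and ICAM2 fell by 0.69 and 0.44 (SE 0.09 and 0.08). Without lipofectamine replicate 1 or 3 or siFGFR3#3, 2 in place of 4 fell.

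**Figure D5:**
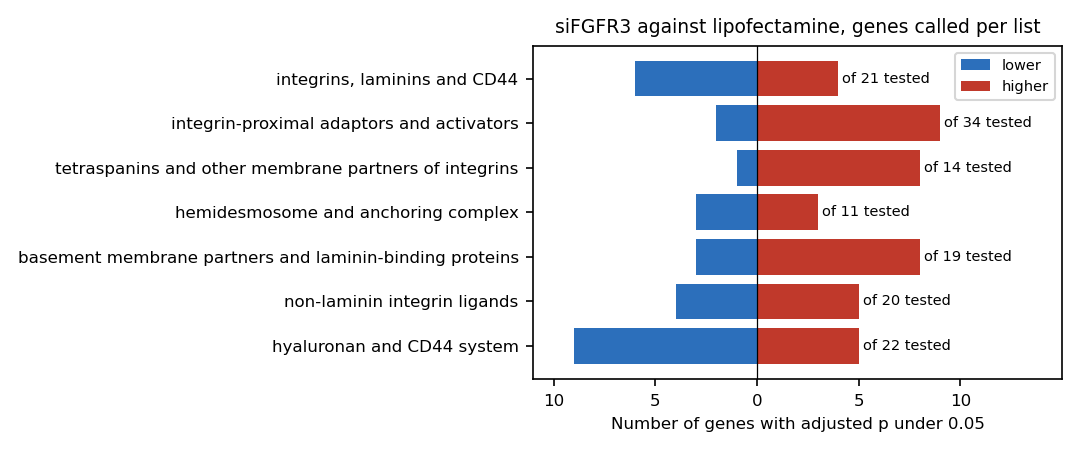
Bars give the number of genes past an adjusted p under 0.05 in siFGFR3 against lipofectamine (horizontal axis, lower to the left and higher to the right) for the integrin, laminin and CD44 genes and 6 lists of their partners, with the number tested. The tetraspanin list has 8 of 14 higher and 1 lower, and the hyaluronan list has 9 of 22 lower and 5 higher; in all rows 20.6% rose and 24.6% fell.

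The labelled cell type was set against its markers. Of 16 urothelial and epithelial markers with a row, 14 were bright enough to be tested, with KRT19 at the highest mean level (13.05). Of these 14, 7 rose and 2 fell (KRT5 and EPCAM), where 20.6% of all rows rose and 24.6% fell. Of the markers of other cells that also make laminins and integrins, 3 of 9 fibroblast and 2 of 7 endothelial genes were tested. Of the fibroblast genes the collagen chain COL1A1 rose by 0.64 (SE 0.11, adjusted p = 0.00391), higher in 3 of 3 siFGFR3 arrays, and THY1 fell by 0.34 (SE 0.08, adjusted p = 0.0108). Neither endothelial gene passed, and COL1A2, COL3A1, DCN, PECAM1 and CDH5 were among the dim rows. The summed linear signal was 141 to 156 in controls and 149.9 to 168 in siFGFR3 arrays for fibroblast markers, and 127 to 134 and 125 to 144 for endothelial markers. The brightest marker was COL1A1 among the fibroblast genes (mean 5.74 over the 6 arrays) and ESAM among the endothelial genes (6.01). The labels name no cells other than UMUC-14, and a part of fibroblasts or endothelial cells in the rise of LAMB2 was not tested.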

How the data were processed

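RNA of 6 arrays was profiled from 100 ng of total RNA. Per the submitters' processing notes, the authors computed the deposited log2 levels by RMA, using affy (versions and genome build not given in the sources used here). RMA subtracts background, equalises the arrays and summarises probes, so a change shared by most genes would be reduced. Row names are Entrez gene IDs: 18669 rows were named by the platform annotation, 607 more, LAMA3 among them, by their ID in RefSeq's GRCh38.p14 gene table, and 85 stayed unnamed. The dimmest 30% of rows by mean over the 6 arrays (5809 rows, up to 3.89) were left out. The test was limma's (version 3.58.1, R 4.3.3; lmFit, eBayes with trend, two-sided, Benjamini-Hochberg). A second model had 1 level per siRNA. The fits were run on simulated data in which both groups had the same spread. In the arrays, the median SD over rows tested was 0.05 in controls and 0.13 in siFGFR3. The simulation does not cover such a difference in spread. An exact permutation test of 3 against 3 cannot go below 0.1. Genes and lists were chosen with earlier results of these data known. All listed genes may be named. Values by array were set for genes that passed with at least 0.5 or differed by at least 1 between siRNAs; they are also given for further genes, chosen after their values were seen. Of each partner list the 2 largest rises and falls are named. Alternatives were other filters, median centring, other variance settings and leaving out each array.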

Additional observations from a re-analysis of the deposited data

Results flagged for a closer look

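In 3 genes, 2 siRNAs against the same receptor gave opposite changes against the lipofectamine arrays, both past an adjusted p under 0.05, and the difference between the siRNAs passed as well in the limma model with 1 level per siRNA. For LAMC1 the difference was −1.46 between siFGFR3#35 and siFGFR3#36 and −1.56 between siFGFR3#35 and siFGFR3#3. For LAMB1 it was 0.83 between siFGFR3#35 and siFGFR3#36, and for ITGA3 it was −0.56 between the same siRNAs. Such a reversal between siRNAs was found for 3.05% of all rows tested. Each siRNA had 1 array, so an siRNA and its array cannot be told apart, and siFGFR3#35 alone has a title ending in 2 where the others end in 1.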

How the results depend on the processing

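The falls of CD44, ITGA2, ITGB5, ITGAE and LAMA3 and the rises of LAMB2 and LAMA5 passed under each alternative that could test them (12, or 11 for LAMA3, which the stricter filter left out). LAMA3 lay at 4.20 to 4.70, not far above the limit of 3.89 for dim rows. In the limma model with 1 level per siRNA, it did not pass with siFGFR3#35 (adjusted p = 0.051). Over the tested genes and alternatives, 227 gene results stayed on their side of the threshold with their direction or, where neither value passed, irrespective of it, 10 lost it, 8 gained it and 1 reversed: LAMC1, at 0.45 without siFGFR3#35, the upper end of a range from −0.33 with 1 array left out. The number of genes that rose was 7 with the spread taken from the controls alone and ran from 2 to 6 when 1 array was left out. The number that fell ran from 5 to 6 with 1 array left out. The median change was −0.14 with arrays centred on their median and ran from −0.12 to −0.07 with 1 array left out. The genes that differed between siFGFR3#36 and siFGFR3#3 numbered 3 without the variance trend and 3 to 7 with 1 control left out, against 6, and the counts for the other siRNA comparisons stayed within 1.5 times. Over all rows 45.1% passed, 34.0% with no filter, 69.2% with the spread taken from the controls alone, and 27.0% to 27.7% without 1 control. No paired analysis was possible because the numbers that end the siFGFR3 titles (2, 1 and 1) are unexplained and repeat, so they do not match the siRNA arrays one to one with lipofectamine replicates 1 to 3. Signal over background could not be computed from the summarised values, which limits what can be said of dim rows.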
